A study of Homo sapiens with 10 samples.

Results

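A set of 8 genes that place, maintain or remove methyl groups on cytosine was followed in a human bronchial epithelial cell line after transfection of 3 synthetic small RNAs. They were the DNA methyltransferases DNMT1, DNMT3A and DNMT3B, the maintenance cofactor UHRF1, the dioxygenases TET1, TET2 and TET3, and the thymine DNA glycosylase TDG. Members were taken by gene symbol from the deposited count tables, in which each had 1 row. These 8 were 8 of 52402 gene symbols, and all 8 were among the 14884 genes that passed the filter on low counts.

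All libraries came from BEAS2B, an immortalised line of normal bronchial epithelium, transfected with Lipofectamine 2000 and harvested after 48 h. The 5 groups held 2 libraries each: a scrambled small RNA (miRcontrol), a mimic of miR-3124-5p (miR3124_mimic), a mimic of miR-200b-3p (miR200b_mimic), an inhibitor of miR-92b (miR92b_inhibitor), and all 3 agents together (the 3-miRNA mixed group). Each single agent and the control were used at 50 nM, and the amount of each agent in the mixture was not given in the sources used here. Directional poly(A) mRNA libraries held between 13587666 and 18503890 counts, so the members were counted at depths from 63 to 6127 counts per library, and no mature miRNA was measured. A single cell line was used, and nothing in the labels says whether the 2 libraries of a group were separate transfections, so p-values cover the spread between these libraries, which may be technical.

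A methyl group on the cytosine of a CpG site is put in place by DNMT3A and DNMT3B, which act without a template, and is copied to the new strand after replication by DNMT1, which UHRF1 brings to hemimethylated sites. TET enzymes oxidise the methyl group in steps that use 2-oxoglutarate and iron, and TDG cuts out the most oxidised forms so that base excision repair can restore an unmodified cytosine. In lung and other epithelia the miR-29 family is known to act on sites in the 3′ untranslated regions (3′UTRs) of DNMT3A, DNMT3B, the TET genes and TDG, and miR-200b is known to act on the transcripts of the repressors ZEB1 and ZEB2.

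The seed of a miRNA, bases 2 to 8, pairs with a complementary word in the 3′UTR of its target, so the mature sequences of the transfected agents and of the miR-29 family are given first (RefSeq, GRCh38.p14, seed in capitals). Both arms of miR-92b are shown because the labels of the inhibitor name neither arm. The miR-29 sequences share 1 seed, which differs from that of each transfected agent.
miR-3124-5p: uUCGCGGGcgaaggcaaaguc
miR-200b-3p: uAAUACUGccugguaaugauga
miR-92b-3p: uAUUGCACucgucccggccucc
miR-92b-5p: aGGGACGGgacgcggugcagug
miR-29a-3p: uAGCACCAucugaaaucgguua
miR-29b-3p: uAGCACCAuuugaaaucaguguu
miR-29c-3p: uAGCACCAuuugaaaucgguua

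The word complementary to each seed was counted on the transcribed strand of the 3′UTR that belongs to each gene's longest coding transcript (GENCODE release 29, GRCh38). The miR-29 word TGGTGCT was found 10 times in TET3, 4 times in TET2 and in DNMT3A, 3 times in TET1 and in TDG, and once in DNMT3B. It was not found in DNMT1 or UHRF1, whose 3′UTRs of 321 and 1351 bases compare with 6000 bases in TET3. Of 12224 3′UTRs of tested genes, 16.5% held that word at least once. Among 3′UTRs within 1.25-fold of its own length, the share was 39.8% for TET3, 27.4% for TET2, 41.0% for DNMT3A, 23.2% for TET1, 15.7% for TDG and 14.0% for DNMT3B. The miR-200b-3p word CAGTATT, held by 19.5% of 3′UTRs, was found once each in UHRF1, DNMT3A, DNMT3B and TET2, where the share among 3′UTRs of similar length was 14.7%, 54.7%, 15.9% and 35.3%. Neither the miR-3124-5p word CCCGCGA (0.622% of 3′UTRs) nor the words of miR-92b-3p, GTGCAAT (13.1%), and miR-92b-5p, CCGTCCC (4.19%), was found in such a 3′UTR of any member. Among the other coding transcripts of TET2, 1 held a GTGCAAT word, and up to 2 CAGTATT words were found in place of 1. No 2 of these words overlapped by position in a member. A match is a description of letters and not evidence of a bound site, and the absence of a match says only that these letters are not in this window.

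The miR-200b-3p words of DNMT3A, DNMT3B and TET2 are not printed. In miR200b_mimic UHRF1 was called lower (log2 fold change -0.80), DNMT3B (0.48) and TET2 (0.34) were called higher, and DNMT3A (-0.04) was not called. One miR-29 word from each gene that held it, and the miR-200b-3p word of UHRF1, are printed as they lie in the transcript, with the word in capitals and the GRCh38 position and strand of the printed bases. The miR-29 word shown is the first that is followed by an A, or the first of all where the gene had none followed by an A.
DNMT3A 3′UTR, chr2:25233409-25233432, minus strand: aacccgacttcataaTGGTGCTtt
DNMT3B 3′UTR, chr20:32809090-32809113, plus strand: ttttactcttcttacTGGTGCTat
TET1 3′UTR, chr10:68692082-68692105, plus strand: tagaatcactcagttTGGTGCTtt
TET2 3′UTR, chr4:105277100-105277123, plus strand: ggatgttctaagaaaTGGTGCTaa
TET3 3′UTR, chr2:74105410-74105433, plus strand: ttctcacaaaataacTGGTGCTag
TDG 3′UTR, chr12:103988139-103988162, plus strand: ctaatgagttttccaTGGTGCTac
UHRF1 3′UTR, chr19:4960999-4961022, plus strand: aaaagttggacttctCAGTATTgt

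**Figure D1:**
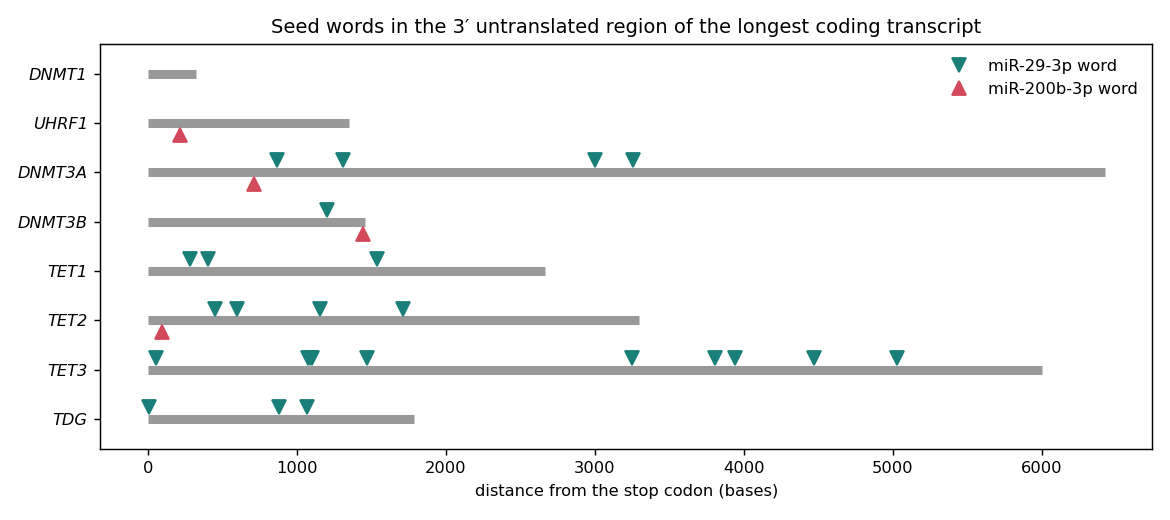
Position of miR-29-3p words (triangles above) and miR-200b-3p words (triangles below) along the 3′UTR that belongs to each gene's longest coding transcript, drawn as a grey bar whose length is the 3′UTR, with distance from the stop codon in bases on the x axis. TET3 carried 10 miR-29 words over 6000 bases, while DNMT1 and UHRF1 carried none.

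The cells expressed the markers of the line as labelled in part. KRT8 and KRT18, keratins of simple epithelium, reached at least 13633 and 10684 counts in each library, whereas the basal keratin KRT14, the basal factor TP63 and the secretory genes SCGB1A1 and MUC5AC had at most 2 counts. The mesenchymal genes VIM, FN1 and CDH2 were abundant in miRcontrol, and the epithelial adhesion genes CDH1 and EPCAM had at most 8 counts there. Under the miR-200b-3p mimic ZEB1 fell from 1106 and 1054 counts to 346 and 445, ZEB2 fell from 590 and 516 to 93 and 112, and CDH1 stood at 146 and 157. Of 5 leukocyte and endothelial markers, PTPRC, CD3E and PECAM1 had at most 4 counts in every library. CD34 and CDH5 were called higher in miR3124_mimic, at 57 and 80 counts for CD34 and 59 and 44 for CDH5, in libraries where PTPRC and CD3E were at 0. The summed level of these 5 markers, of which CD34 was the most abundant in miRcontrol, was 1.26 and 1.25 CPM (counts scaled to library size) in miRcontrol and 8.06 and 7.13 in miR3124_mimic. It was 0.673 and 0.288 with the miR-200b-3p mimic, 0.992 and 1.31 with the inhibitor, and 1.60 and 1.67 with the mixture. Of 5 mesenchymal markers, with VIM the most abundant in miRcontrol, none was higher and 5 were lower in miR200b_mimic and in the mixture, where their sum was 4668 and 4612 CPM and 4987 and 5006 CPM against 7431 and 7407 in miRcontrol. In miR3124_mimic that sum was 4612 and 4486 CPM, and 1 marker was higher (ZEB2, log2 fold change 0.53), 1 lower (VIM, -2.23) and 3 were not called. In miR92b_inhibitor it was 7080.5 and 6936 CPM, with 3 markers higher and 2 lower. Of 8 epithelial markers, with KRT8 and KRT18 the most abundant, 5 were tested and 5 were higher in miR200b_mimic, where the sum of all 8 was 2669 and 2709.5 CPM against 1442 and 1459.7 in miRcontrol. That sum was 1944 and 1956 CPM in miR3124_mimic, 1457 and 1400.1 in miR92b_inhibitor, and 2644 and 2637 in the mixture. In these groups 2 markers were higher and 1 lower, none higher and 1 lower, and 4 higher and 1 lower. The lower one was in each case KRT19, a keratin at 148 and 133 counts in miRcontrol and 9 and 16 in miR3124_mimic, with log2 fold changes of -3.40, -0.68 and -1.65. The part of these marker changes in the results on the members was not tested.

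Levels were expressed as normalized CPM, counts relative to the size of the library scaled by the relative log expression factors of edgeR, and divided by exon length where genes were compared with each other. Per kilobase of exon, the maintenance pair led in miRcontrol, with DNMT1 at 35.9 ± 0.12 CPM per kilobase (SD, n = 2) and UHRF1 at 25.9 ± 0.69. TDG followed at 7.09 ± 0.40. TET3 at 3.75 ± 0.19 and DNMT3B at 3.29 ± 0.36 were close neighbours, with library values of 3.61 and 3.89 against 3.04 and 3.55. TET2 stood at 2.02 ± 0.11, DNMT3A at 1.06 ± 0.27 and TET1 at 0.487 ± 0.0078. With the longest coding transcript as the length the order was the same, and DNMT1 stood at 65.0. DNMT3L, the catalytically inactive relative of DNMT3A and DNMT3B, had 0 counts in every library.

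The first question was which members changed under each agent against miRcontrol. A gene was called where the Benjamini-Hochberg adjusted p of edgeR's quasi-likelihood test over 14884 genes was under 0.05. In miR3124_mimic 5 members were higher and 2 lower, where 25.7% of all tested genes were called higher and 25.3% lower. In miR200b_mimic 4 members were higher and 2 lower, against 21.4% and 19.1% of all genes. In the 3-miRNA mixed group 3 members were higher and 2 lower, against 21.5% and 21.1%. In miR92b_inhibitor 1 member was higher and 2 were lower, against 17.5% and 18.2%, which is near the share over all genes. By the rule of the study, which asks for a 2-fold change or more and p under 0.05 before adjustment, 1 member (TET1) passed in miR3124_mimic and none passed in the other 3 comparisons. That rule took 8.81% of all genes under the miR-3124-5p mimic, 5.70% under the miR-200b-3p mimic, 2.63% under the inhibitor and 5.42% under the mixture. Over the 8 members the median log2 fold change was, in that order, 0.38, 0.16, -0.11 and 0.21, and the median over all tested genes lay between -0.006 and 0.004. The 4 comparisons share the same 2 control libraries, so they are not independent of each other. In these bulk samples a smaller number of cells that express a gene and less RNA per cell cannot be told apart.

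**Figure D2:**
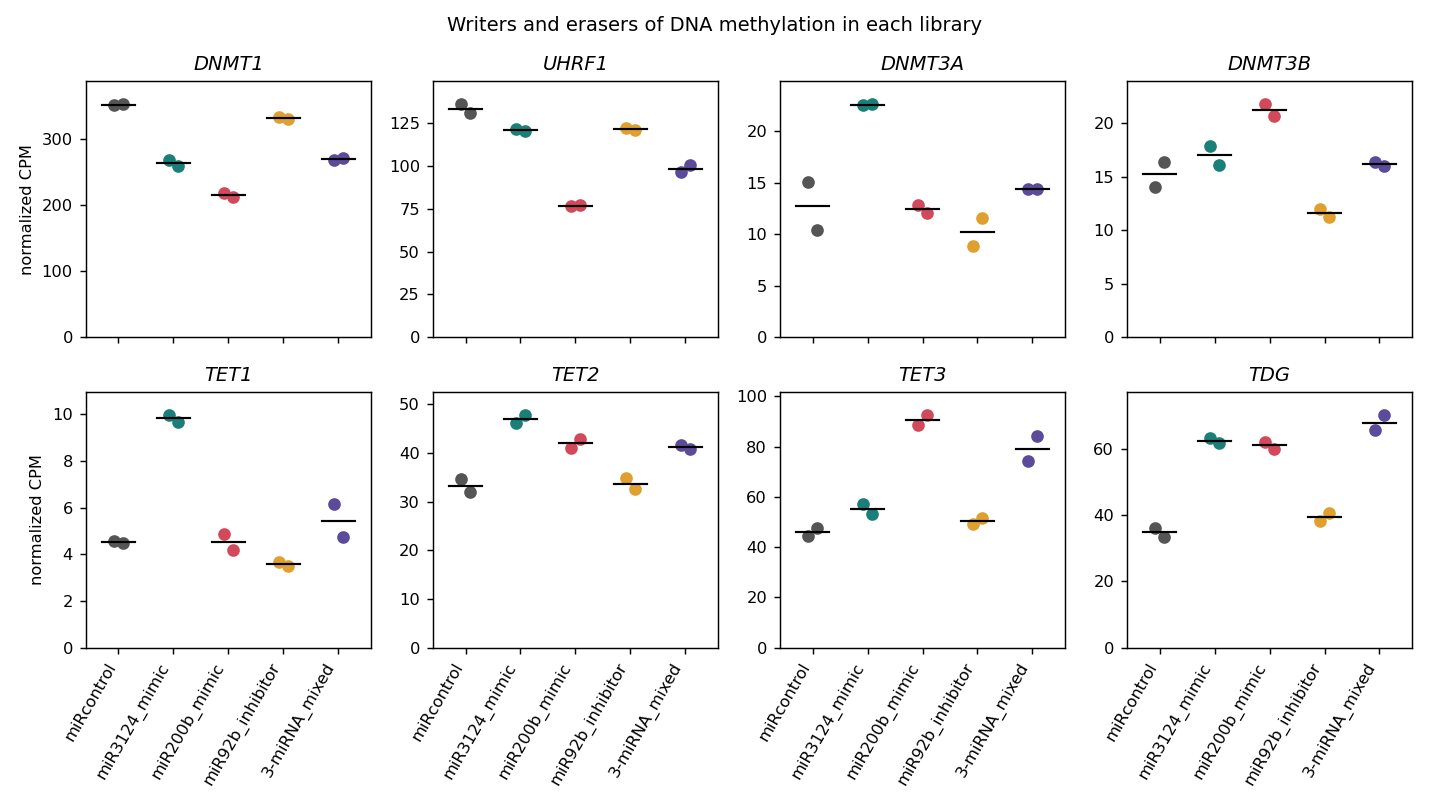
Normalized CPM of each of the 8 genes on the y axis of its own panel, with 1 point per library, a line at the mean of the 2 libraries, and the 5 groups on the x axis; each y axis starts at 0. DNMT1 and UHRF1 stood lowest in miR200b_mimic, TET1 and DNMT3A stood highest in miR3124_mimic, and TDG stood above miRcontrol in all 4 transfected groups.

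DNMT1, the maintenance methyltransferase (chromosome 19, 10133345 to 10231286, minus strand), had the highest level per length of the 8 genes. It stood at 351 and 352 CPM in miRcontrol, 269 and 259 with the miR-3124-5p mimic, 218 and 212 with the miR-200b-3p mimic, 333 and 329.9 with the miR-92b inhibitor, and 268 and 271 with the mixture. Both libraries under either mimic and in the mixture lay below both control libraries, and the libraries of the mixture and of miR3124_mimic overlapped. On the log2 scale DNMT1 fell by 0.71 ± 0.04 (SE) in miR200b_mimic (adjusted p = 8.28e-21, edgeR), to 0.61 times the control level. It fell by 0.41 in miR3124_mimic (adjusted p = 2.63e-13) and by 0.38 in the mixture (adjusted p = 3.74e-12). With the inhibitor the log2 fold change was -0.08 (95% interval -0.16 to -0.01, adjusted p = 0.0676), which did not pass after adjustment, although both inhibitor libraries lay below both controls. With at least 10 counts per library it was called lower (-0.09, adjusted p = 0.0493). In the order of groups, miRcontrol and miR92b_inhibitor were therefore not separated in the fit reported, nor were the mixture and miR3124_mimic, and miR200b_mimic lay below both of the latter (adjusted p = 5.75e-09 against miR3124_mimic). The exons of S1PR2 overlap those of DNMT1 on the same strand in GENCODE release 29, and S1PR2 had 66 to 122 counts per library against 2914 to 6127 for DNMT1.

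UHRF1 (chromosome 19, 4903080 to 4962154, plus strand) reads hemimethylated CpG and recruits DNMT1. Its levels were 136 and 131 CPM in miRcontrol, 121 and 121 with the miR-3124-5p mimic, 76.5 and 76.9 with the miR-200b-3p mimic, 122 and 121 with the miR-92b inhibitor, and 96.4 and 100.3 with the mixture. Every transfected library lay below both controls, and the miR200b_mimic libraries lay below all others. UHRF1 fell by 0.80 ± 0.05 in miR200b_mimic (adjusted p = 4.84e-19), to 0.58 times the control level, and by 0.44 in the mixture (adjusted p = 2.19e-11). The falls of 0.14 in miR3124_mimic (adjusted p = 0.00675) and 0.13 in miR92b_inhibitor (adjusted p = 0.0152) were small, and without the first control library both lost the call, at adjusted p = 0.0929 and 0.167. The call in miR92b_inhibitor was also lost with DESeq2 (adjusted p = 0.0542) and without either inhibitor library (adjusted p = 0.0603 and 0.103). These 2 groups did not separate from each other (log2 difference 0.01, 95% interval -0.08 to 0.10). Between miR200b_mimic and miR3124_mimic the log2 difference of UHRF1 was -0.66 (95% interval -0.75 to -0.56).

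DNMT3A, a de novo methyltransferase (chromosome 2, 25227855 to 25342590, minus strand), was counted less deeply, at 152 to 400 counts per library. It stood at 15.1 and 10.4 CPM in miRcontrol, 22.5 and 22.6 with the miR-3124-5p mimic, 12.9 and 12.1 with the miR-200b-3p mimic, 8.87 and 11.6 with the miR-92b inhibitor, and 14.4 and 14.4 with the mixture. The 2 controls differed from each other by more than the other pairs, yet both lay below the miR3124_mimic libraries. DNMT3A rose in miR3124_mimic, to 1.76 times the control level (log2 fold change 0.82 ± 0.12, adjusted p = 8.25e-08). Without the first control library that log2 fold change was 1.11 and without the second it was 0.58. In the other 3 comparisons it was not called, with log2 fold changes of -0.04 in miR200b_mimic, -0.32 in miR92b_inhibitor and 0.17 in the mixture. Without the first control library the mixture was called higher (log2 fold change 0.46, adjusted p = 0.0116). In miR92b_inhibitor the log2 fold change of DNMT3A ran from -0.558 to -0.0242 with 1 library left out at a time. It was -0.56 without the second control library and -0.53 without the second inhibitor library. There DNMT3A was called lower with the edgeR exact test (adjusted p = 0.0417) and with at least 10 counts per library (adjusted p = 0.0456). The contrasts among transfected groups leave out the control means, and there DNMT3A was higher in miR3124_mimic than in the mixture by 0.65 on the log2 scale (adjusted p = 5.12e-06). The next steps of the order, from the mixture to miRcontrol, miR200b_mimic and miR92b_inhibitor, did not separate neighbours.

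DNMT3B, the other de novo enzyme (chromosome 20, 32762385 to 32809356, plus strand), moved differently from DNMT3A. Its levels were 14.1 and 16.4 CPM in miRcontrol, 17.9 and 16.1 with the miR-3124-5p mimic, 21.8 and 20.7 with the miR-200b-3p mimic, 12.0 and 11.2 with the miR-92b inhibitor, and 16.4 and 16.0 with the mixture. Libraries of miRcontrol, miR3124_mimic and the mixture overlapped, while miR200b_mimic lay above and miR92b_inhibitor below all of them. DNMT3B rose in miR200b_mimic by a log2 fold change of 0.48 ± 0.10 (adjusted p = 1.51e-04). It fell by 0.39 ± 0.11 in miR92b_inhibitor (adjusted p = 0.00389), a call that was lost without the second control library (adjusted p = 0.121) and without the second inhibitor library (adjusted p = 0.0568). In miR3124_mimic the log2 fold change was 0.15 (95% interval -0.06 to 0.36), and it was 0.09 (-0.12 to 0.30) in the mixture. Between the 2 mimics DNMT3B was higher with miR-200b-3p by 0.32 (adjusted p = 0.0056), the direction opposite to DNMT3A, whose log2 difference was -0.86 ± 0.12 (SE).

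TET1 (chromosome 10, 68560656 to 68694482, plus strand), a dioxygenase with a CXXC domain that binds unmethylated CpG, had the lowest counts of the set, 63 to 171 per library. It stood at 4.58 and 4.48 CPM in miRcontrol, 9.97 and 9.67 with the miR-3124-5p mimic, 4.86 and 4.20 with the miR-200b-3p mimic, 3.68 and 3.50 with the miR-92b inhibitor, and 6.14 and 4.74 with the mixture. Both miR3124_mimic libraries stood apart from the other 8, whose values ran from 3.50 to 6.14. TET1 rose 2.17-fold in miR3124_mimic (log2 fold change 1.11 ± 0.16, adjusted p = 1.20e-07). The log2 fold change was -0.01 in miR200b_mimic (95% interval -0.39 to 0.37), -0.34 in miR92b_inhibitor (-0.72 to 0.05) and 0.26 in the mixture (-0.09 to 0.62), and these wide intervals reflect the low counts. Against miR3124_mimic the log2 difference of TET1 was -1.12 in miR200b_mimic, -1.45 in miR92b_inhibitor and -0.85 in the mixture (adjusted p = 1.03e-05 for the last).

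TET2 (chromosome 4, 105145875 to 105279816, plus strand) lacks the CXXC domain of the other TET enzymes. Its levels were 34.6 and 32.0 CPM in miRcontrol, 46.1 and 47.9 with the miR-3124-5p mimic, 41.1 and 43.0 with the miR-200b-3p mimic, 34.9 and 32.6 with the miR-92b inhibitor, and 41.6 and 40.9 with the mixture. Libraries of both mimics and of the mixture lay above the controls, and the inhibitor libraries overlapped them. TET2 rose by log2 fold changes of 0.50 ± 0.07 in miR3124_mimic (adjusted p = 3.69e-08), 0.34 in miR200b_mimic (adjusted p = 1.12e-04) and 0.31 in the mixture (adjusted p = 2.70e-04). With the inhibitor the log2 fold change was 0.02 (95% interval -0.13 to 0.16). The step from miR3124_mimic down to miR200b_mimic was 0.16 (adjusted p = 0.0404) and was lost with TMM factors (adjusted p = 0.0594), with DESeq2 (adjusted p = 0.14) and without a filter on low counts (adjusted p = 0.114).

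TET3 (chromosome 2, 73986404 to 74108176, plus strand), the TET enzyme with the highest level per exon length in each group, stood at 44.4 and 47.7 CPM in miRcontrol, 57.0 and 53.4 with the miR-3124-5p mimic, 88.8 and 92.7 with the miR-200b-3p mimic, 49.2 and 51.6 with the miR-92b inhibitor, and 74.3 and 84.2 with the mixture. The miR200b_mimic libraries were the highest, those of the mixture came next, and no library of these groups overlapped the controls. TET3 rose in miR200b_mimic to 1.98 times the control level (log2 fold change 0.98 ± 0.06, adjusted p = 2.22e-18), just under the 2-fold limit of the study. It rose by 0.78 in the mixture (adjusted p = 4.49e-15) and by 0.26 in miR3124_mimic (adjusted p = 7.24e-04). The inhibitor gave 0.13 (95% interval 0.00064 to 0.26, adjusted p = 0.113). TET3 held 10 miR-29 words and no miR-200b-3p word, and TET1, with 3 miR-29 words, had its highest level in the other mimic. The part of these words in the changes of TET3 and TET1 was not tested.

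TDG (chromosome 12, 103965804 to 103988874, plus strand), the glycosylase that removes oxidised methylcytosine, rose in all 4 comparisons. Its levels were 36.1 and 33.4 CPM in miRcontrol, 63.1 and 61.7 with the miR-3124-5p mimic, 62.0 and 59.9 with the miR-200b-3p mimic, 38.2 and 40.5 with the miR-92b inhibitor, and 65.5 and 70.2 with the mixture. The lowest of the 6 libraries that received a mimic stood at 59.9 CPM and the highest of the other 4 at 40.5 CPM. TDG rose 1.95-fold in the mixture (log2 fold change 0.96 ± 0.06, adjusted p = 9.69e-18), 1.79-fold in miR3124_mimic (adjusted p = 1.33e-15) and 1.75-fold in miR200b_mimic (adjusted p = 1.41e-14). The rise of 0.18 on the log2 scale in miR92b_inhibitor (adjusted p = 0.0349) was lost with DESeq2 (adjusted p = 0.107), without a filter on low counts (adjusted p = 0.0685), without the second control library (adjusted p = 0.305) and without the second inhibitor library (adjusted p = 0.248). The 2 mimics did not separate (log2 difference -0.03, 95% interval -0.16 to 0.09). A pseudogene of it, TDGP1, had 6 to 31 counts per library against 559 to 1304 for TDG, and reads shared between them are uncertain.

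**Figure D3:**
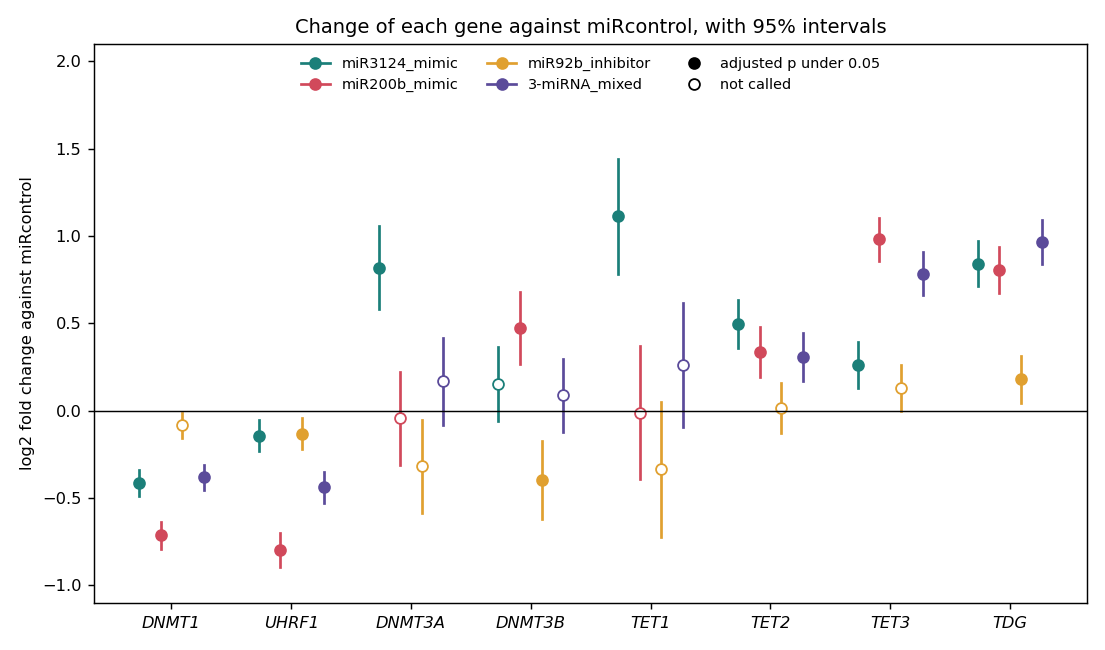
Log2 fold change of each gene against miRcontrol (y axis) with its 95% interval, by gene (x axis) and transfected group (colour), filled where the adjusted p of edgeR's quasi-likelihood test was under 0.05. DNMT1 and UHRF1 lie below 0 under both mimics and in the mixture, TET1 and DNMT3A are highest under the miR-3124-5p mimic, and TET3 and TDG lie above 0 under both mimics and in the mixture.

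In miR92b_inhibitor the count of calls, 3 (UHRF1 and DNMT3B lower, TDG higher), moved with the processing. With DESeq2 1 member was called, DNMT3B, with a floor of 10 counts in all libraries 5 were called, and with each library of the comparison left out in turn 1 or 2 were called. Over all genes tested the share called was 35.7% in the fit reported, 25.7% with DESeq2, 42.5% with that floor and 25.2% to 27.6% with a library left out, so it moved in the same direction.

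The next question was how the mixture stood against each agent alone, tested by contrasts within the same fit of all 10 libraries. Against miR92b_inhibitor all 8 members were called, 6 higher and 2 lower in the mixture, where 39.6% of all genes were called in either direction. DNMT1 and UHRF1 were the 2 lower members, at log2 differences of -0.30 and -0.31, TDG differed by 0.79, and the call of TET1 (0.60) was lost with DESeq2 (adjusted p = 0.053). Against miR200b_mimic 5 members were called, where 38.6% of all genes were. DNMT1, UHRF1 and TDG were higher in the mixture by 0.33, 0.36 and 0.16, and DNMT3B and TET3 were lower, with log2 differences of -0.39 and -0.20. Against miR3124_mimic 5 members were called, where 49.1% of all genes were. UHRF1, DNMT3A, TET1 and TET2 were lower in the mixture, with log2 differences of -0.30, -0.65, -0.85 and -0.19, and TET3 was higher by 0.52. The call of TET2 was lost with DESeq2 (adjusted p = 0.0856). The means of UHRF1, DNMT3A, TET1 and TET3 in the mixture lay between those of the 2 mimics. Those of DNMT1 and TDG lay above both, and those of DNMT3B and TET2 below both. DNMT1 and DNMT3B did not separate from miR3124_mimic, and DNMT3A, TET1 and TET2 did not separate from miR200b_mimic. TDG stood 0.12 over miR3124_mimic, which was not called (adjusted p = 0.0776), and 0.16 over miR200b_mimic (adjusted p = 0.029). Neither result on TDG was stable. The difference from miR3124_mimic was called with TMM normalization (adjusted p = 0.0433). The call against miR200b_mimic was lost with DESeq2 (adjusted p = 0.125) and without a filter on low counts (adjusted p = 0.0693).

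Single agents also differed from each other. Between the 2 mimics 7 of 8 members were called (57.8% of all genes), TDG being the exception. TET1 also passed the rule of the study, with a log2 difference of -1.12 in miR200b_mimic against miR3124_mimic. Between miR92b_inhibitor and miR3124_mimic 6 were called (58.8% of all genes), and by the rule of the study DNMT3A and TET1 passed, at log2 differences of -1.14 and -1.45. Between miR92b_inhibitor and miR200b_mimic 6 were called (50.5% of all genes), with DNMT1 and UHRF1 higher in the inhibitor group by 0.63 and 0.67 and TET3 lower, at -0.85. No member passed the rule of the study there. The share of all genes that passed that rule was not counted for contrasts between transfected groups.

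The make-up of the TET and DNMT families was described per length. Per kilobase of exon, the summed level of the TET genes was 6.21 and 6.31 CPM per kilobase in miRcontrol, 8.52 and 8.30 with the miR-3124-5p mimic, 10.3 and 10.6 with the miR-200b-3p mimic, 6.52 and 6.56 with the miR-92b inhibitor, and 9.24 and 9.85 with the mixture. TET3 supplied 58.2% and 61.6% of it in miRcontrol, 54.6% and 52.4% in miR3124_mimic and 70.6% and 71.2% in miR200b_mimic. TET1 supplied 7.94% and 7.64% in miRcontrol and 12.6% in both libraries of miR3124_mimic. TET3 thus took a larger share of the TET sum in miR200b_mimic than in miRcontrol, and TET1 took a larger share in miR3124_mimic than in miRcontrol. Neither share overlapped between the 2 mimics. The summed level of the methyltransferases moved the other way, from 40.1 and 40.4 in miRcontrol to 33.2 and 31.8 in miR3124_mimic and 28.0 and 27.1 in miR200b_mimic. DNMT1 supplied 89.3% and 89.1% of that sum in miRcontrol and 79.4% and 79.8% in miR200b_mimic, where DNMT3B supplied 16.8% and 16.5% against 7.58% and 8.78% in miRcontrol. These shares are descriptions and rest on the length used. Per kilobase of the longest coding transcript, DNMT3B supplied 10.8% and 10.6% in miR200b_mimic against 4.66% and 5.40% in miRcontrol. On that length TET3 supplied 47.2% and 44.9% of the TET sum in miR3124_mimic, and TET2, at 42.7% and 45.1%, exceeded it in the second library.

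**Figure D4:**
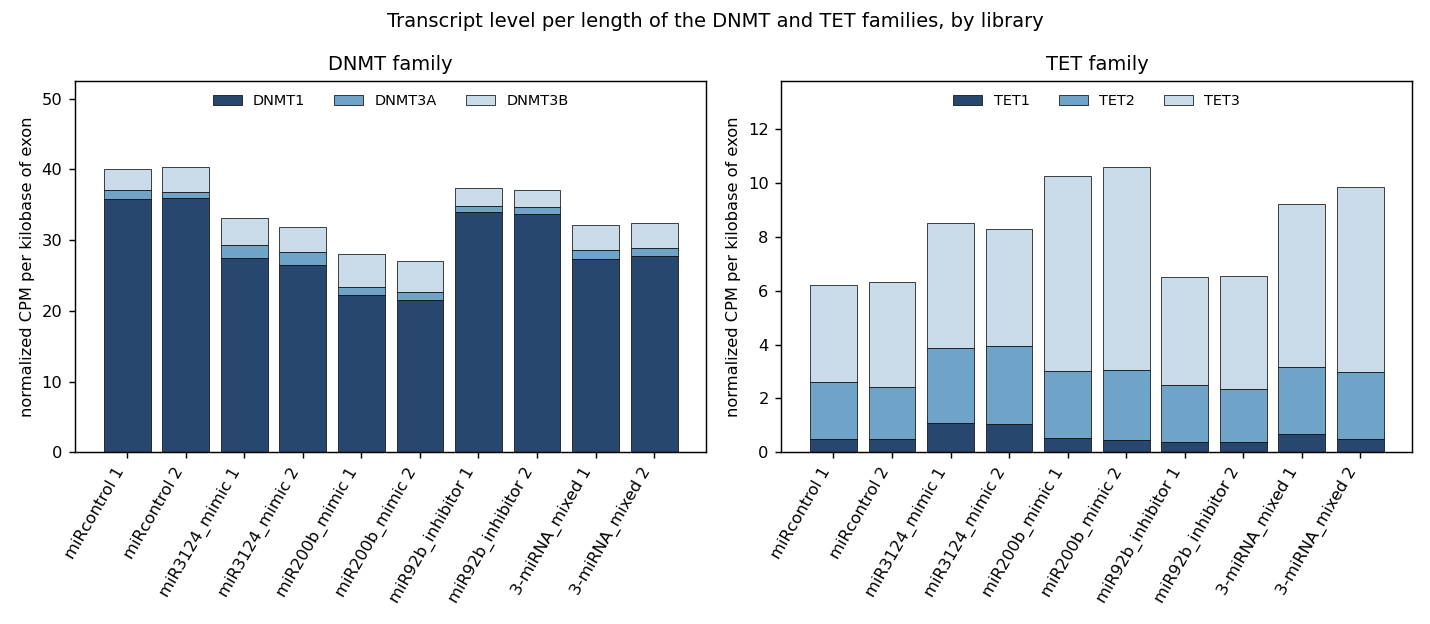
Stacked bars of normalized CPM per kilobase of exon for the DNMT family (left) and the TET family (right), 1 bar per library, starting at 0. The DNMT sum falls from 40.1 and 40.4 in miRcontrol to 28.0 and 27.1 in miR200b_mimic, and the TET sum rises from 6.21 and 6.31 to 10.3 and 10.6.

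Genes that work with the members were then counted by list, to be read against the same shares of all genes given above. Of 7 partners of maintenance methylation that were tested, 5 were lower and 1 higher in miR3124_mimic (median log2 fold change -0.32), 4 were lower and none higher in miR200b_mimic (-0.19), 3 were lower and none higher in miR92b_inhibitor (-0.03), and 4 were lower and 1 higher in the mixture (-0.15). LIG1, the ligase that joins the lagging strand, fell by 0.96 on the log2 scale in miR3124_mimic, by 0.39 in miR92b_inhibitor and by 0.63 in the mixture. CDCA7, the partner of the remodeller HELLS, fell by 0.80 in miR200b_mimic. HELLS itself fell by 0.46 in miR200b_mimic and by 0.15 in miR92b_inhibitor, rose by 0.23 in miR3124_mimic, and stood at -0.03 in the mixture. The deubiquitinase USP7 rose by 0.14 in the mixture and fell by 0.16 in miR3124_mimic. EHMT2 was not among the genes tested.

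Base excision repair completes the exchange of the base after TDG has cut it out. Of its 10 genes 6 were lower and none higher in miR3124_mimic (median -0.30), 2 were lower and 3 higher in miR200b_mimic (0.15), 1 was lower and 1 higher in miR92b_inhibitor (-0.02), and 2 were lower and 1 higher in the mixture (-0.11). LIG3, the ligase of the short patch, fell by 0.66 in miR3124_mimic and by 0.45 in the mixture. The uracil glycosylase SMUG1 rose by 0.67 in miR200b_mimic and fell by 0.35 in miR3124_mimic. NTHL1 fell by 0.47 in miR200b_mimic and by 0.54 in miR3124_mimic. The polymerase POLB rose by 0.29 in miR200b_mimic, 0.42 in miR92b_inhibitor and 0.41 in the mixture, and fell by 0.31 in miR3124_mimic. The nuclease APEX1 fell by 0.21 in miR92b_inhibitor.

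Readers of methylated CpG bind the mark that the members set. Of 6 tested, 3 were lower in miR3124_mimic, 2 higher and 1 lower in miR200b_mimic, 1 higher and 1 lower in miR92b_inhibitor, and 2 higher and 4 lower in the mixture, with medians of -0.16, -0.03, 0.00 and -0.15. ZBTB38, a zinc finger reader, fell by 0.61 in miR3124_mimic. MBD2 rose by 0.29 and MBD3 fell by 0.13 in miR200b_mimic. MBD1 rose by 0.18 in miR92b_inhibitor and by 0.19 in the mixture.

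The supply of the methyl donor S-adenosylmethionine and of 2-oxoglutarate was described in the same way. Of 12 genes of the methyl donor cycle, 2 were higher and 5 lower with the miR-3124-5p mimic, 4 higher and 4 lower with the miR-200b-3p mimic, 5 higher and 1 lower with the inhibitor, and 4 higher and 1 lower with the mixture, with medians of -0.11, 0.00, 0.04 and 0.05. MTR, methionine synthase, fell by 0.66 in miR3124_mimic, by 0.32 in miR92b_inhibitor and by 0.23 in the mixture. Its reductase MTRR rose by 0.37 in miR92b_inhibitor, AHCYL1 rose by 0.47 in miR3124_mimic and 0.30 in the mixture, and AHCYL2 rose by 0.60 in miR200b_mimic. The synthetase MAT2A fell by 0.24 in miR200b_mimic and by 0.10 in miR3124_mimic and rose by 0.15 in miR92b_inhibitor. Of 8 tested genes of 2-oxoglutarate supply and TET partners, 3 were higher and 3 lower with the miR-3124-5p mimic, none higher and 6 lower with the miR-200b-3p mimic, 2 higher and 5 lower with the inhibitor, and 2 higher and 6 lower with the mixture, with medians of 0.02, -0.20, -0.24 and -0.27. The isocitrate dehydrogenase IDH1 fell by 0.91 in miR92b_inhibitor and IDH2 fell by 0.83 in the mixture, and both had lower counts in both groups. IDH1 had 846 and 909 counts in the mixture against 1237 and 1180 in miRcontrol. IDH2 had 392 and 374 counts in miR92b_inhibitor against 649 and 632 in miRcontrol. In miR3124_mimic IDH1 and IDH2 rose by 0.35 and 0.39 and IDH3G fell by 0.44. IDH3A rose by 0.36 in miR92b_inhibitor and 0.23 in the mixture and fell by 0.24 in miR3124_mimic. CXXC5, a relative of the TET CXXC domain, rose by 0.59 in miR3124_mimic and fell by 0.72 in miR200b_mimic.

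DNMT1 and UHRF1 are known to be transcribed with the S phase programme, so its genes were set beside them. Of 18 genes of S phase and proliferation, 13 were lower and 3 higher in miR3124_mimic (median -0.32), 15 lower and 2 higher in miR200b_mimic (-0.27), 9 lower and 2 higher in miR92b_inhibitor (-0.15), and 15 lower and none higher in the mixture (-0.35). RRM2, a subunit of ribonucleotide reductase, fell by 1.32 in miR3124_mimic, CCNE2 fell by 0.77 in miR200b_mimic, and the proliferation antigen MKI67 fell by 0.67 in miR92b_inhibitor and fell by 1.05 in the mixture. CCNE1 rose by 0.68 in miR3124_mimic and 0.73 in miR200b_mimic, and the helicase subunit MCM3 rose by 0.19 in miR92b_inhibitor and fell by 0.21 in miR200b_mimic. The part of these genes' change in that of DNMT1 and UHRF1 was not tested.

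The other known miR-29 targets were set beside DNMT3A, DNMT3B, the TET genes and TDG. Of 15 genes 12 were tested, and COL1A2, COL3A1 and ELN had at most 4 counts. In miR3124_mimic 11 of 12 were higher and none lower, with a median log2 fold change of 0.70. In miR200b_mimic 6 were higher and 3 lower (median 0.14), in miR92b_inhibitor 3 were higher and 7 lower (-0.27), and in the mixture 7 were higher and 3 lower (0.28). SPARC, a matrix protein, rose by 1.23 in miR3124_mimic. The collagen chain COL1A1 rose by 0.99 in miR3124_mimic, 1.62 in miR200b_mimic and 0.87 in the mixture and fell by 0.90 in miR92b_inhibitor. The kinase CDK6 rose by 1.45 in the mixture, and its counts were also higher under each mimic alone. They were 8066 and 10353 for miR-200b-3p, 6567 and 7393 for miR-3124-5p, and 4473 and 4062 for the controls. The inhibitor libraries held 4564 and 4912. The fibrillin FBN1 fell by 0.53 in miR200b_mimic and the oxidase LOXL2 fell by 0.35 in the mixture, whereas both rose in miR3124_mimic, by 0.84 and 0.18. The phosphatase PPM1D rose by 0.25 in miR92b_inhibitor. Of the 6 members known as miR-29 targets, 5 were called higher in miR3124_mimic (all but DNMT3B), where 25.7% of all genes were. In miR200b_mimic 4 were called higher, DNMT3B among them (21.4% of all genes), in the mixture 3 (21.5%), and in miR92b_inhibitor 1 was called higher (17.5%) and 1 lower (18.2%). The levels of miR-29 itself were not measured, and its part in these changes was not tested.

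**Figure D5:**
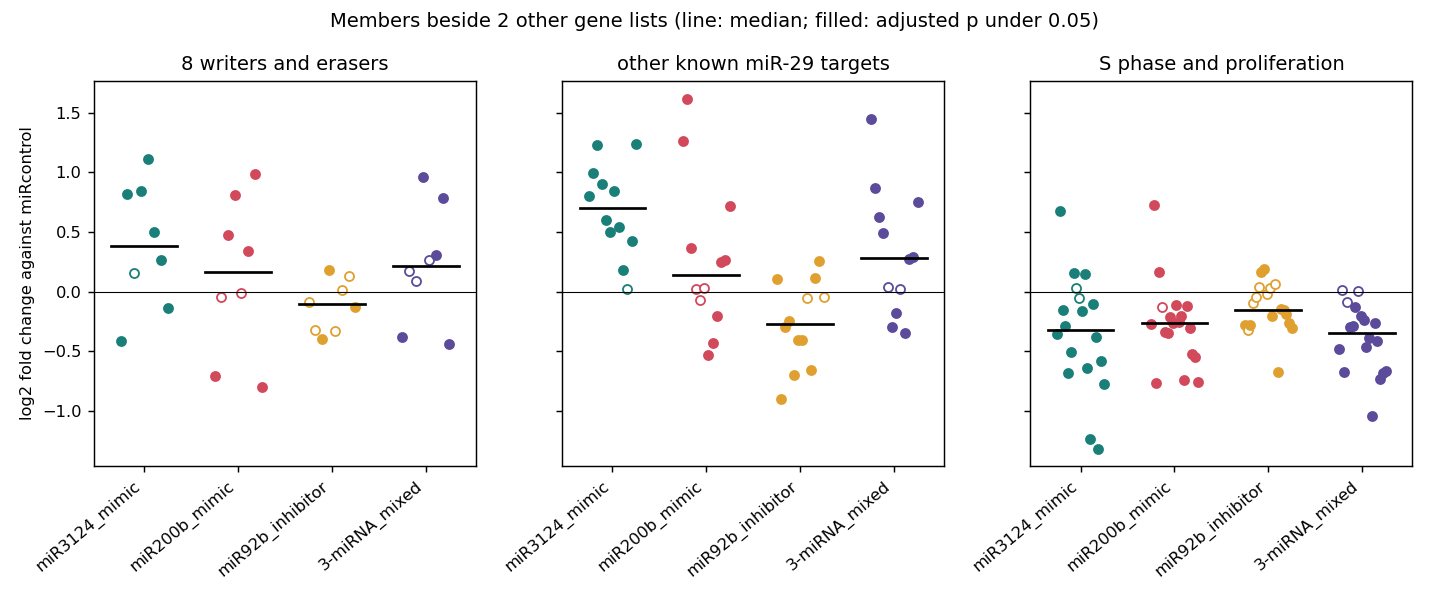
Log2 fold change against miRcontrol (y axis) of the 8 members (left), 12 other known miR-29 targets (middle) and 18 genes of S phase and proliferation (right) in the 4 transfected groups (x axis), 1 point per gene, filled where called, with a line at the median. In miR3124_mimic 11 of the 12 other miR-29 targets are called higher and 13 of the 18 S phase genes lower.

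Across the 10 libraries the members fell into patterns that mostly follow the group means, so the coefficients below describe 5 groups of 2 libraries and not 10 independent points. On log2 CPM, Pearson's r was 0.92 between DNMT3A and TET1, 0.89 between DNMT1 and UHRF1, 0.89 between TET2 and TDG, and -0.95 between UHRF1 and TET3. Among 12899 genes with a mean of at least 1 CPM, the gene most like DNMT1 was EME1 (r = 0.98), followed by IARS2 and PTMA. UHRF1 was most like GPATCH8 (0.99), LOX and STRN, DNMT3A was most like BACH2 (0.98), LBH and RIMKLA, and DNMT3B was most like SEC24C (0.98), CHST6 and LGALS3. TET1 was most like TGFBR1 (0.99), GLCE and ALDH9A1, TET2 most like PRDX5 (0.99), NKIRAS2 and RNF217, TET3 most like TGFA (0.99), USP53 and AMIGO2, and TDG most like TMEM87B (0.99), FBXO21 and ENTPD7. With Spearman's rho in place of r, none of these neighbours was kept for DNMT1, UHRF1, TET1, TET3 and TDG, 1 was kept for DNMT3A and for DNMT3B, and 2 for TET2.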

How the data were processed

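Raw read counts per gene symbol were deposited by the authors as 1 table per library, made, per the labels and the study's methods, from adapter- and quality-trimmed paired reads mapped to GRCh38 with TopHat. The counting tool and annotation are not given in the sources used here. Each table held 58173 rows for 52402 symbols, and 5771 rows that repeated a symbol were summed with it. Library totals ran from 13587666 to 18503890 counts, and the precision of each member follows from its own count.

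Counts were fitted with edgeR 4.0.16 (R 4.3.3), a package that the study also names, with relative log expression normalization and filterByExpr. All 10 libraries entered 1 quasi-likelihood fit without covariates, with Benjamini-Hochberg adjustment over 14884 genes. Standard errors are the log2 fold change divided by the square root of its F, and intervals use the matching t quantile. The scripts were tested on simulated data. Seed words were searched in GENCODE release 29 3′UTRs. Alternatives were TMM factors, library totals, the edgeR exact test, DESeq2 1.42.0, other filters, a fit of the 2 groups compared, a replicate block and leaving out each library.

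Named genes were all members and, per list and comparison with miRcontrol, the called gene of at least 1 mean CPM with the largest rise and the one with the largest fall, plus the 3 tested genes closest to each member by Pearson's r. One gene that this rule names is not reported here. The marker genes, ZEB1 and ZEB2 among them, serve as checks. The members and lists were chosen with earlier results of these data known. Replicates differed by more than sampling noise (chi-square over its degrees of freedom 1.55 to 2.16), so none was counted as a duplicate.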

Additional observations from a re-analysis of the deposited data

How the results depend on the processing

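Of 720 alternative values of the members' log2 fold changes, 683 kept their direction and their side of the threshold, 18 lost the call, 9 gained it and 10 changed sign. The count of members called against miRcontrol stayed within 1.5 times of 7 in miR3124_mimic, 6 in miR200b_mimic and 5 in the 3-miRNA mixed group under every alternative run. In miR92b_inhibitor it was 1 with DESeq2 and 5 with at least 10 counts in every library, against 3. With 1 library left out at a time it ran from 6 to 7 in miR3124_mimic, was 6 in miR200b_mimic, and ran from 1 to 2 in miR92b_inhibitor and from 5 to 6 in the mixture. Members past a fold change of 2 then ran from 1 to 2, 0 to 1, 0 to 0 and 0 to 1. In those fits a lone library is assumed to vary like the other groups.

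The log2 fold changes that changed sign with 1 library left out were uncalled ones: DNMT3A from -0.28 to 0.25 and TET1 from -0.11 to 0.10 in miR200b_mimic, TET2 from -0.0401 to 0.0758 in miR92b_inhibitor, and DNMT3A from -0.0712 to 0.463 and DNMT3B from -0.019 to 0.201 in the mixture. UHRF1 in miR92b_inhibitor against miR3124_mimic, 0.01, was -0.00951 with library totals and -0.00983 when every library had to hold 10 counts. Replicate numbers did not pair the libraries (correlations of same-numbered deviations from -0.036 to 0.045 over 10 pairs of groups), and a replicate block left the counts of members called at 7, 6, 3 and 5 and changed no call of a member. Depth limits TET1 most, at 63 to 171 counts per library.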

Other observations

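Genes of the germline that are known to be kept silent by promoter methylation had few counts in every group. None of 9 passed the filter on low counts. Their summed count was 10 and 10 in miRcontrol, 5 and 12 with the miR-3124-5p mimic, 2 and 6 with the miR-200b-3p mimic, 2 and 8 with the miR-92b inhibitor, and 4 and 5 with the mixture. SYCP3, a protein of the synaptonemal complex, was the most abundant, at 6 counts in both control libraries, and DAZL, SYCE1 and ASZ1 were at 0 in all libraries. A count of 0 in a single library allows up to 3 expected counts there, a limit that does not use the other libraries. Differences between groups were not tested at these counts.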
